A study of Mus musculus with 10 samples.

Results

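The mitosis genes were 41 named mouse genes that drive or carry out cell division, listed by name. Of these, 40 had a probe set whose annotation gave that symbol alone, and the brightest such probe set stood for each gene. All 40 lay above the level filter, so 40 of the 15662 genes tested were mitosis genes. Ccnb1, which encodes cyclin B1, had no such probe set and was not measured. The 40 fall into 8 roles, from the kinase that starts mitosis to the proteins that split the cell.

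RNA was taken from sorted c-Kit-positive cells of 5 independent primary mouse lines of acute myeloid leukaemia and read on 10 one-colour arrays. All lines carried the MLL-AF9 fusion oncogene and Cre-ER, a Cre recombinase that tamoxifen switches on. Lines 10949, 10950 and 10986 had a conditional allele of Zfx, a zinc finger transcription factor encoded on the X chromosome (Zfx fl/y, "fl"), and lines 10977 and 10980 the wild-type allele (Zfx wt/y, "wt"). Each line gave 1 array after 72 h in 10 nM 4-hydroxytamoxifen (4-OHT) and 1 in ethanol vehicle, so there were 3 fl 4-OHT, 3 fl vehicle, 2 wt 4-OHT and 2 wt vehicle arrays. Cells were sorted for c-Kit after Cre induction, which means that cells losing c-Kit during the culture were not measured. The ages of the mice are not given. The series title asks how deletion of Zfx alters gene expression, and the wt lines show what 4-OHT and active Cre do without a floxed allele.

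Cells enter mitosis when Cdk1, bound to a cyclin, is freed of its inhibitory phosphates by Cdc25 phosphatases. Aurora and Polo kinases then build the spindle, kinetochores attach chromosomes to it, and the spindle checkpoint holds back the anaphase promoting complex until all are attached. Most of these genes are transcribed together in G2 and M phase, so their summed RNA in a culture is a common readout of dividing cells. In RNA pooled from sorted cells, fewer cells in G2 and M and less RNA per such cell cannot be told apart.

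The probe set of Zfx had log2 levels of 10.07, 9.98 and 10.02 on the fl 4-OHT arrays, against 10.09, 9.63 and 9.24 on the fl vehicle arrays (lines 10949, 10950 and 10986 in this order here and throughout). On the wt arrays of lines 10977 and 10980 it had 9.90 and 10.04 under 4-OHT, against 10.12 and 10.07 under vehicle. Zfx was thus not lower after 4-OHT in the fl lines (log2 change 0.37, SE 0.16, limma adjusted p = 0.407), but where its probes lie relative to the deleted part is not given, so this checks neither the deletion nor the labels. Kit, the sorted marker, ranged from 8.35 to 9.94 over the 10 arrays. One array, line 10986 under vehicle, differed most from the rest, with a mean correlation of 0.961 with the other arrays, against 0.979 to 0.985 for the other 9. The spread of 4-OHT changes over all genes was accordingly wider in line 10986 (SD 0.50) than in the other lines (SD 0.17 to 0.26), and results that rest on it are given with and without it.

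No mitosis gene passed the test after 4-OHT in the fl lines. The median log2 change of the 40 was -0.08 and 32 of them lay below 0, where 50% of all genes tested did. The median turned to 0.03 without line 10950, with 23 above and 17 below 0. It was -0.22 without line 10986, with 1 above and 39 below 0. Of all 15662 genes, 0.153% passed at an adjusted p of 0.05 (8 higher and 16 lower), and 2 of the 40 members, Mki67 and Aurkb, had an unadjusted p under 0.05, a share of 5.0% against 12.3% of all genes. Without line 10986, 15 members and 2796 of the 15662 genes had an unadjusted p under 0.05. Without line 10949 it was 1 member and 1611 genes, and without line 10950 it was 0 members and 1759 genes. With all lines, the smallest adjusted p of a member was 0.294, for Mki67. With array weights, which count less consistent arrays less, 15 members passed as lower, in a fit that called 14.1% of all genes lower. The changes of the 40 ranged from -0.42 for Anln to 0.10 for Nuf2, and their 95% intervals reached a median of 0.36 to each side.

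**Figure D1:**
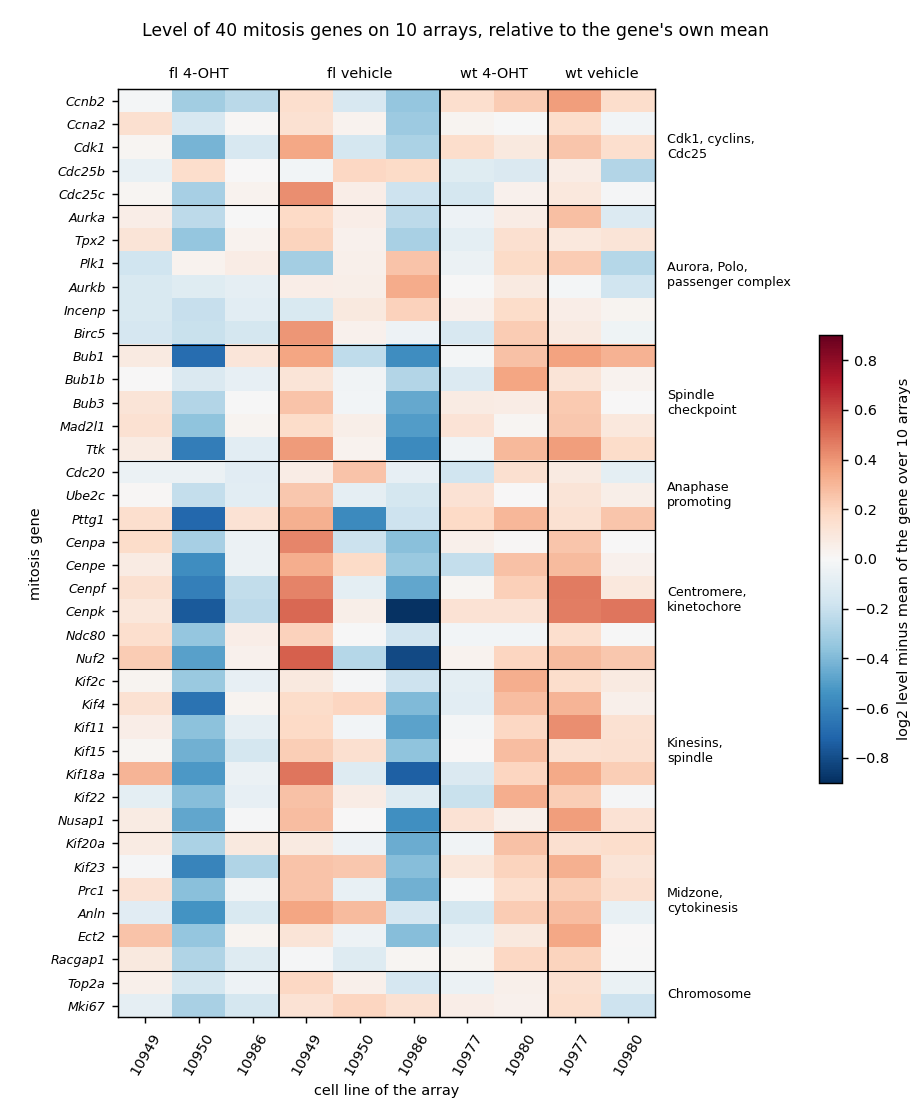
Log2 level of each of the 40 mitosis genes (rows, by role) on each of the 10 arrays (columns), shown as the difference from the gene's own mean over all arrays. The 4-OHT array of line 10950 and the vehicle array of line 10986 are low for most genes, and the vehicle arrays of lines 10949 and 10977 are high.

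The direction of the 4-OHT change differed from line to line. In fl line 10949, 36 of the 40 genes were lower after 4-OHT (52.6% of all genes were), with a median change of -0.17. All 40 were lower in fl line 10950 (42.5% of all genes), with a median of -0.31. By contrast, 32 of the 40 were higher in fl line 10986 (45.5% of all genes), with a median of 0.23. The wt lines split in the same way: 37 were lower in line 10977 (49.2% of all genes, median -0.23) and 31 were higher in line 10980 (49.1% of all genes, median 0.10). Each line has 1 array per treatment, so these are counts over genes that share the same arrays, and no test goes with them.

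The pattern lower in lines 10949 and 10950 and higher in line 10986 held for 30 of the 40 genes (75.0%), against 14.1% of all genes. The fuller pattern over the 5 lines, lower in 10949, 10950 and 10977 and higher in 10986 and 10980, held for 20 of the 40, against 4.57% of all genes. Only 6 of the 40 were lower in all 3 fl lines (15.0%, against 14.5% of all genes): Cdc25b, Aurkb, Incenp, Birc5, Cdc20 and Mki67. None of the 40 was higher in all 3, where 14.6% of all genes were.

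**Figure D2:**
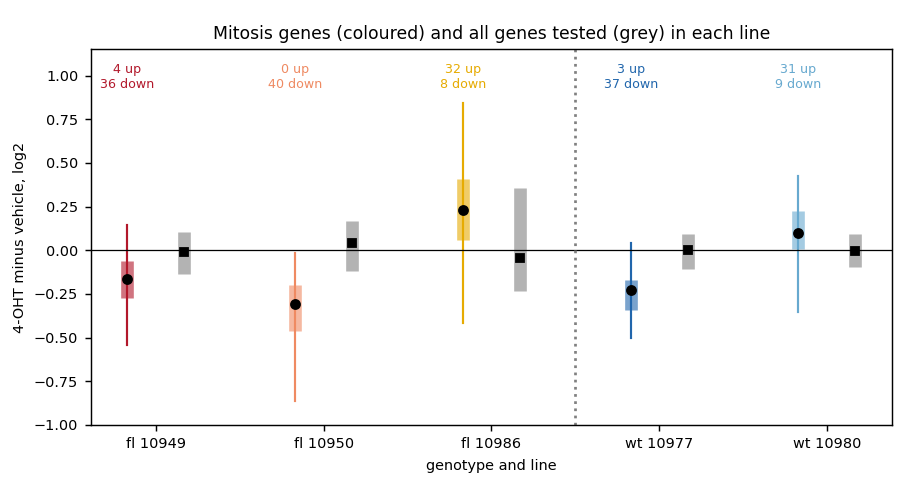
4-OHT minus vehicle log2 change of the mitosis genes in each line, with the lines on the horizontal axis (fl lines left of wt lines). Black circles are medians over the 40 genes, coloured boxes their quartiles, coloured lines their full range, and black squares on grey boxes the median and quartiles of all genes tested. The medians of the mitosis genes are below 0 in lines 10949, 10950 and 10977 (-0.17, -0.31 and -0.23) and above 0 in lines 10986 and 10980 (0.23 and 0.10).

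The lowest and highest levels of the mitosis genes fell mostly on a few arrays. Whether these arrays set the direction of the 4-OHT change in their lines was not tested, because no line has repeat arrays of a treatment. The 4-OHT array of fl line 10950 held the lowest level of 22 of the 40 genes (it held the lowest of 7.01% of all genes), and its median deviation from the genes' own means was -0.35. The vehicle array of fl line 10986 held the lowest of another 14, on an array that held the lowest of 26.1% of all genes, with a median deviation of -0.31. At the top, the vehicle arrays of fl line 10949 and wt line 10977 held the highest level of 17 and 12 genes (of 14.4% and 5.36% of all genes), with median deviations of 0.21 and 0.23. Without the vehicle array of line 10986 and without the line as a block, the median fl change was -0.19 and 39 of 40 genes lay below 0, with 0 passing.

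Genes of this kind carry shared promoter letters. These are shown for the members with the largest fl changes among those with a promoter window. Mitotic promoters are known for the cell cycle homology region (TTTGAA or TTTAAA), where the MuvB complex binds, and for CCAAT boxes bound by NF-Y. RefSeq promoter windows (assembly GRCm38.p6, from 250 bases before to 50 after each start) were given for 35 of the 41 genes, in 40 windows. On either strand, TTTGAA or TTTAAA occurred in 75.0% of these windows, against 27.6% of all 32851 windows. CCAAT occurred in 75.0%, against 37.4%, and in 2 or more copies in 47.5%, against 11.7%. AGGCCT, core letters of the Zfx binding motif, occurred in 15.0%, against 10.3%. Its 6 windows came from 4 of the 35 genes, with Bub3 and Prc1 each counted more than once. Letters were counted by exact match on both strands, with TTTAAA and AGGCCT, which read the same on either, counted once, and matches of different motifs can share at most an end base. No window was given for Ccna2, Cdc25c, Tpx2, Aurkb, Incenp or Kif20a, so these were not searched. Among the searched genes that hold a motif, the windows of the 5 with the largest fl changes are printed. They run from 5′ to 3′ on the gene's own strand, with every match in capitals.
Anln, chr9:22389157-22389456, minus strand: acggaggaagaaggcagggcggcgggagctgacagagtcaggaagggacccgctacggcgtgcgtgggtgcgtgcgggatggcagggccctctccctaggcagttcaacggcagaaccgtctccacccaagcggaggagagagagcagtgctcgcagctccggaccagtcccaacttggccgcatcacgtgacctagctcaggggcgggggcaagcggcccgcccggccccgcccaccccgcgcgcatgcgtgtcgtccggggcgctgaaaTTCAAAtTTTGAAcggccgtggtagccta
Kif23, chr9:61946750-61947049, minus strand: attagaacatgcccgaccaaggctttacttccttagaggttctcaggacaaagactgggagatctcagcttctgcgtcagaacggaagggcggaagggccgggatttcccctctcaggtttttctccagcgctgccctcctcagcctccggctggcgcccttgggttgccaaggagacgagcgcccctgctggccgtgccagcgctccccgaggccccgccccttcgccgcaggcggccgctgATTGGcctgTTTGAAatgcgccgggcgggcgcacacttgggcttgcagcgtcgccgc
Mki67, chr7:135716330-135716629, minus strand: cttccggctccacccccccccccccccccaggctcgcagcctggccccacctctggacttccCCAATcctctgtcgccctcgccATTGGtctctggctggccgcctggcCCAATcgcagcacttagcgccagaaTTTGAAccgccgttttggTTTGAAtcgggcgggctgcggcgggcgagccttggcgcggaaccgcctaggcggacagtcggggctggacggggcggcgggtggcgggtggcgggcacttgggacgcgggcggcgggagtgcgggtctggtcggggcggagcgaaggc
Birc5, chr11:117848987-117849286, plus strand: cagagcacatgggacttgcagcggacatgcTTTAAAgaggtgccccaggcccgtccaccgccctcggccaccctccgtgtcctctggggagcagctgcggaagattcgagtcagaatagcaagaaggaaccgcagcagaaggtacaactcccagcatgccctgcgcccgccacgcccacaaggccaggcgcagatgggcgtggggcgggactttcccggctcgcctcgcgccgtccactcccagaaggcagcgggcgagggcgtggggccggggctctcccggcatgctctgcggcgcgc
Kif22, chr7:127042371-127042670, minus strand: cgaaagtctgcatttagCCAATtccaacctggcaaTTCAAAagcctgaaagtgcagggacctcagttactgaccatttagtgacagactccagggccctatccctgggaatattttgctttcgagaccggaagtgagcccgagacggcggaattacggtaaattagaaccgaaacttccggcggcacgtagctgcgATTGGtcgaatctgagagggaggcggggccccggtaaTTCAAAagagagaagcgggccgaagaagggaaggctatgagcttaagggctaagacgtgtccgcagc
Mki67 has 3 CCAAT matches, starting 188, 166 and 141 bases before the start, and then TTTGAA at 116 and 98 bases before it. Kif22 has both motifs in pairs, with CCAAT at 233 and 54 bases and TTTGAA at 215 and 17 bases before the start. In Kif23, CCAAT lies 7 bases before the annotated start and TTTGAA directly after it. Anln and Birc5 have no CCAAT in the window. A match is letters in a window and not a bound site.

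Among the genes of mitotic entry, none changed past the test. Cdk1, the entry kinase, had log2 levels of 12.51, 12.08 and 12.35 on the fl 4-OHT arrays, against 12.84, 12.34 and 12.22 on the fl vehicle arrays. The ranges of the 2 groups overlapped, and line 10986 was the line that was higher after 4-OHT (fl change -0.15, SE 0.12, 95% interval -0.44 to 0.13). Cdc25c, a phosphatase that activates Cdk1, had 8.70, 8.39 and 8.72 under 4-OHT, against 9.10, 8.75 and 8.50 under vehicle, again with line 10986 reversed (fl change -0.18, SE 0.15). The cyclins Ccna2 and Ccnb2, at 0.05 and -0.08, and the phosphatase Cdc25b, at -0.08, had smaller fl changes. In the wt lines all 5 genes were lower in line 10977, and 4 of 5 were higher in line 10980.

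The 3 members of the chromosomal passenger complex were lower in all 3 fl lines, as were Cdc25b, Cdc20 and Mki67, a share of the 40 near that of all genes. Aurkb, the kinase of the complex, had 11.13, 11.16 and 11.18 on the fl 4-OHT arrays, against 11.33, 11.32 and 11.60 on the fl vehicle arrays. The 2 groups did not overlap, and the fl change of -0.26 (SE 0.11) had a limma adjusted p of 0.387. Birc5 (survivin), which docks the complex on chromatin, had 9.58, 9.53 and 9.57 under 4-OHT, against 10.12, 9.77 and 9.68 under vehicle, also without overlap (fl change -0.30, SE 0.14, limma adjusted p = 0.453). Incenp, the scaffold, had 9.77, 9.69 and 9.81, against 9.77, 9.99 and 10.11, with line 10949 at the same value to 2 decimals (fl change -0.20, SE 0.11, limma adjusted p = 0.536). On wt arrays Aurkb had 11.26 and 11.35 under 4-OHT, against 11.25 and 11.09 under vehicle, so that both wt lines were higher, by 0.01 and 0.26. It was the 1 member lower in all 3 fl lines and higher in both wt lines (2.5% of the 40, against 3.49% of all genes). Birc5 in the wt lines was 9.58 and 9.96, against 9.81 and 9.69, lower in line 10977 and higher in line 10980.

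The other kinases of this role stayed nearer to 0 in the fl lines. Aurka, the spindle pole kinase, its activator Tpx2, and Plk1, which acts from entry to cytokinesis, had fl changes of -0.06, -0.05 and -0.02. Plk1 had 10.37, 10.57 and 10.61 on the fl 4-OHT arrays, against 10.24, 10.59 and 10.80 on the fl vehicle arrays, with line 10949 higher and line 10986 lower, the reverse of most members. In wt line 10980 Plk1 had the highest change of the 40 genes, 0.42 (10.71 under 4-OHT, against 10.29 under vehicle).

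All 5 spindle checkpoint genes had the same order of fl lines: lower in 10949 and 10950, higher in 10986. The median changes were -0.15, -0.42 and 0.48. Ttk, the kinase that recruits the checkpoint to kinetochores, had 9.50, 8.81 and 9.33 on the fl 4-OHT arrays, against 9.81, 9.46 and 8.86 on the fl vehicle arrays (fl change -0.16, SE 0.22, 95% interval -0.69 to 0.36). Its lowest levels were the 4-OHT array of line 10950 and the vehicle array of line 10986. Bub1, the kinase at the checkpoint's base, had 11.53, 10.76 and 11.56, against 11.80, 11.22 and 10.89, a difference of opposite sign between lines that left a fl change of -0.02 (SE 0.22). Bub1b, Bub3 and Mad2l1, parts of the inhibitor of Cdc20, had fl changes of -0.01, 0.02 and 0.03.

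Cdc20, which activates the anaphase promoting complex, had 9.57, 9.58 and 9.52 on the fl 4-OHT arrays, against 9.70, 9.88 and 9.56 on the fl vehicle arrays. It was lower in all 3 fl lines, but the group ranges overlapped (fl change -0.15, SE 0.13, limma adjusted p = 0.744). Its E2 enzyme Ube2c had 11.48, 11.26 and 11.38, against 11.72, 11.39 and 11.31 (fl change -0.10, SE 0.10). Pttg1, the securin degraded at anaphase, was near 0 (fl change 0.01, SE 0.12), and line 10950 was low for it under both treatments, at 9.56 under 4-OHT and 9.69 under vehicle, with the other fl lines at 10.08 to 10.58.

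The 6 centromere and kinetochore genes kept to the line order. All were lower in lines 10949 and 10950 and higher in 10986, with medians of -0.29, -0.44 and 0.30. Cenpe, the motor that moves chromosomes to the metaphase plate, had 10.24, 9.61 and 10.11 on the fl 4-OHT arrays, against 10.50, 10.34 and 9.84 on the fl vehicle arrays (fl change -0.24, SE 0.22, limma adjusted p = 0.794). Cenpf, a large protein of the outer kinetochore, had 9.59, 8.83 and 9.22, against 9.89, 9.36 and 8.98 (fl change -0.20, SE 0.18). Cenpk, of the inner kinetochore network, had 8.81, 7.95 and 8.47, against 9.22, 8.76 and 7.81 (fl change -0.19, SE 0.25). In Cenpk, line 10950 was lower by 0.81 and line 10986 higher by 0.65 after 4-OHT, and the range of the 4-OHT arrays lay within that of the vehicle arrays. Without line 10986, Cenpk was the only member that passed, with a fl change of -0.61 (limma adjusted p = 0.0368, in a fit in which 1.89% of all genes passed as lower). Nuf2 reached the largest single-line value on the high side, 0.85 in line 10986, and had an overall fl change of 0.10 (SE 0.22). Cenpa, the centromeric histone, and Ndc80, the partner of Nuf2 in microtubule binding, had -0.02 and -0.06.

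Spindle motors and microtubule proteins followed the same order, with all 7 lower in 10949 and 10950 and higher in 10986 (medians -0.18, -0.45 and 0.40). All 7 were also lower in wt line 10977, with a median of -0.40, and 5 of 7 were higher in wt line 10980. Kif22, a chromosome-arm motor, had 8.78, 8.48 and 8.79 on the fl 4-OHT arrays, against 9.13, 8.93 and 8.75 on the fl vehicle arrays (fl change -0.25, SE 0.17, limma adjusted p = 0.646). Kif15, which helps keep the spindle bipolar, had 10.89, 10.44 and 10.71, against 11.09, 11.01 and 10.51 (fl change -0.19, SE 0.16). Kif4, a motor of condensed chromosomes, had 9.16, 8.36 and 9.05, against 9.19, 9.22 and 8.63 (fl change -0.16, SE 0.24), and its value of -0.86 in line 10950 was the lowest of any member in any line. The main bipolar spindle motor Kif11, the depolymerase Kif2c, the plus-end motor Kif18a and the spindle protein Nusap1 had fl changes between -0.09 and 0.04.

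Anln and Kif23, of the midzone and cytokinesis genes, had the 2 largest fl changes of the 40. Anln, the scaffold of the contractile ring, had 10.87, 10.44 and 10.83 on the fl 4-OHT arrays, against 11.33, 11.26 and 10.82 on the fl vehicle arrays. It was lower by 0.46 and 0.82 in lines 10949 and 10950 and level in line 10986, so that the groups overlapped (fl change -0.42, SE 0.20, limma adjusted p = 0.463). Kif23, the motor of centralspindlin, had 10.45, 9.87 and 10.20, against 10.72, 10.71 and 10.08 (fl change -0.33, SE 0.18, limma adjusted p = 0.547). Its partner Racgap1 had a fl change of -0.07, and Ect2, which centralspindlin recruits to the midzone, had 0.08. Kif20a, the motor that brings the passenger complex to the midzone, and Prc1, which bundles midzone microtubules, had 0.10 and -0.01.

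Mki67, which coats mitotic chromosomes, had the smallest adjusted p. It had 12.14, 11.93 and 12.06 on the fl 4-OHT arrays, against 12.35, 12.41 and 12.36 on the fl vehicle arrays, without overlap (fl change -0.33, SE 0.11, 95% interval -0.59 to -0.06, limma adjusted p = 0.294). On the wt arrays it had 12.28 and 12.26 under 4-OHT, against 12.38 and 12.03 under vehicle, lower in line 10977 and higher in line 10980. Top2a, the topoisomerase that untangles chromosomes, had 11.41, 11.21 and 11.32, against 11.56, 11.42 and 11.22 in the fl lines (fl change -0.08, SE 0.11). Aurkb, Birc5 and Mki67 were the 3 members whose fl 4-OHT arrays all lay below all fl vehicle arrays (7.5%, against 7.27% of all genes), and none lay wholly above (4.55% of all genes).

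**Figure D3:**
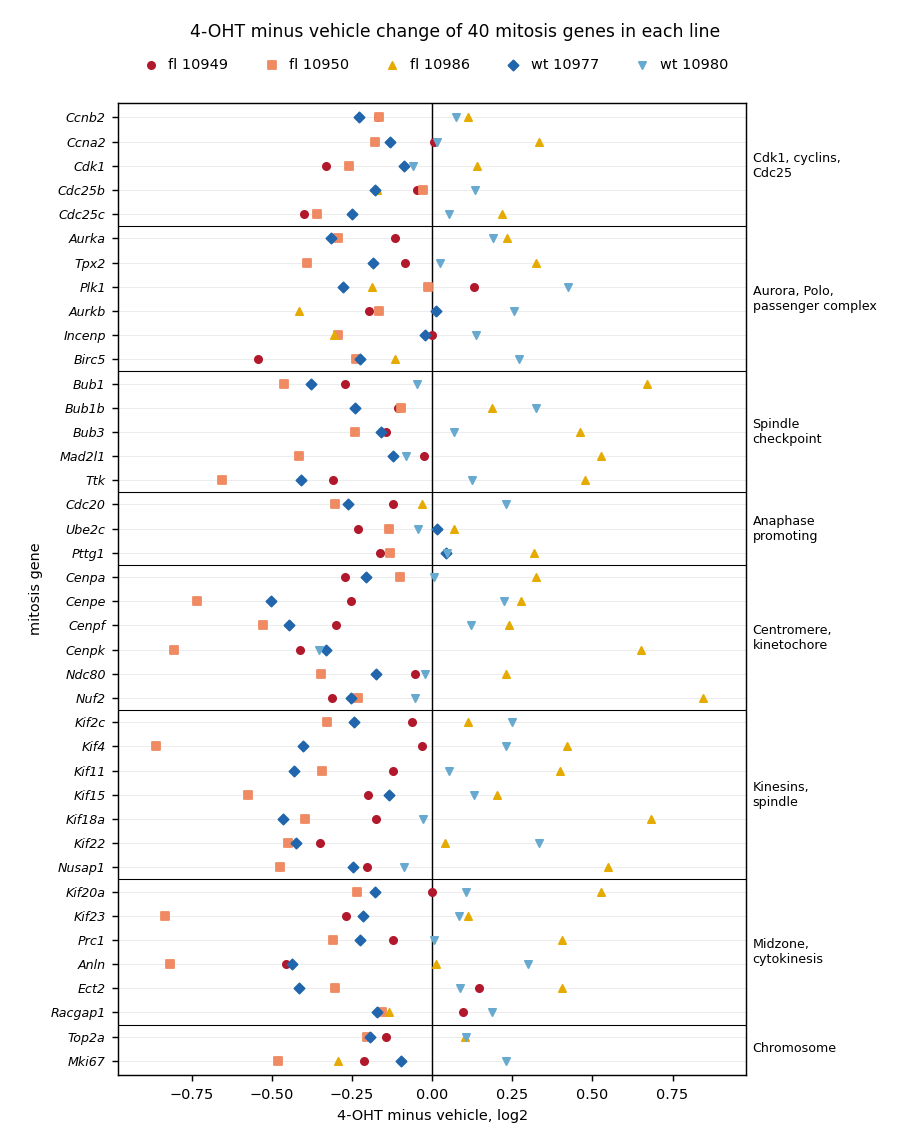
4-OHT minus vehicle log2 change (horizontal axis) of each mitosis gene (rows, by role), with 1 symbol for each of the 5 lines. Line 10950 is below 0 for all 40 genes and line 10986 above 0 for 32. The 3 fl lines lie together below 0 for 6 genes: Cdc25b, Aurkb, Incenp, Birc5, Cdc20 and Mki67.

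In the wt lines, none of the 40 genes passed for 4-OHT against vehicle (0.0% of all genes passed). Their median change was -0.07 with 31 below 0 (50.2% of all genes were), and 0 members had an unadjusted p under 0.05, as did 0.147% of all genes. The median rests on 2 lines with opposite signs: it was 0.10 without line 10977 and -0.23 without line 10980. Cenpk had the lowest wt change, -0.34 (SE 0.31), and Aurkb the highest, 0.13 (SE 0.13).

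The difference of the 4-OHT change between fl and wt lines passed for none of the 40 genes, nor for any gene tested (0.0%). At an unadjusted p under 0.05 it held 0 members, against 5.82% of all genes. Its median over the members was -0.04, with 17 above and 23 below 0 (52.1% of all genes were below). Mki67 and Aurkb were at the low end, with differences of -0.40 (SE 0.18, limma adjusted p = 0.875) and -0.39 (SE 0.17, limma adjusted p = 0.861), and Kif18a at the high end, with 0.28. The median turned to 0.02, 0.08 and 0.15 without lines 10949, 10950 and 10980, with 23, 26 and 31 of the 40 above 0. It was -0.16 without line 10986 (39 of 40 below 0) and -0.20 without line 10977 (33 of 40 below 0). The sign of the median thus depends on which line is left out.

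Under 4-OHT, the mitosis genes were lower in fl than in wt cells for 39 of the 40, where 43.6% of all genes were lower. The median difference was -0.20, and none passed (0.645% of all genes did), with 1 member at an unadjusted p under 0.05 (10.8% of all genes). Ccnb2 had 12.19, 11.90 and 11.97 on the fl 4-OHT arrays, against 12.36 and 12.44 on the wt 4-OHT arrays (difference -0.38, SE 0.15, limma adjusted p = 0.406). For 9 of the 40 genes every fl 4-OHT array lay below both wt 4-OHT arrays (22.5%, against 14.2% of all genes), among them Cdk1, Aurkb, Birc5, Kif23 and Mki67. Kif23 had the largest difference, -0.44 (SE 0.23), and Cdc25b alone of the 40 was higher in the fl cells, by 0.15. The median was -0.08 without line 10950 and -0.10 without line 10980, with 28 and 30 of the 40 below 0. Without lines 10949, 10986 and 10977, each left out alone, 39, 39 and 38 lay below 0.

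Under vehicle, 31 of the 40 mitosis genes were lower in fl than in wt cells (45.7% of all genes were), with a median difference of -0.15. None passed (0.0192% of all genes did), with 1 member at an unadjusted p under 0.05 (9.83% of all genes), but with array weights 16 did, 13 lower and 3 higher, in a fit that called 23.2% of all genes lower and 16.6% higher. Cenpk had the largest difference, -0.58, and its levels were 9.22, 8.76 and 7.81 on the fl vehicle arrays, against 9.17 and 9.19 on the wt vehicle arrays. The lowest of these was the vehicle array of line 10986, and without that line the median over the 40 genes was -0.02. Aurkb was the 1 member whose fl vehicle arrays all lay above the wt vehicle arrays (11.33, 11.32 and 11.60, against 11.25 and 11.09). That is 2.5% of the 40, against 18.6% of all genes. Ccnb2 and Kif20a lay wholly below (5.0%, against 12.1% of all genes). These comparisons set different lines against each other, so line and genotype cannot be told apart.

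**Figure D4:**
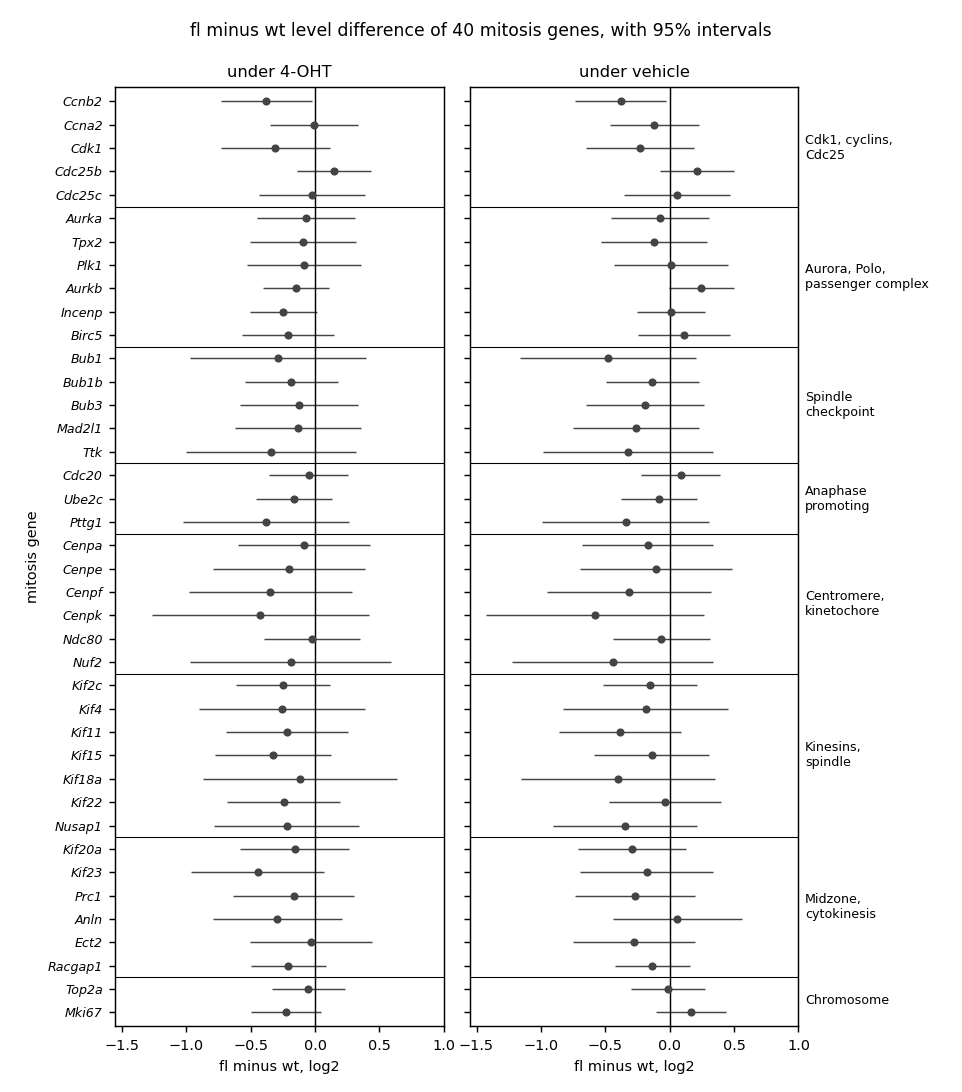
Difference in log2 level between fl and wt lines for each mitosis gene, under 4-OHT (left) and under vehicle (right), as limma estimates with their unadjusted 95% intervals. Under 4-OHT 39 of 40 genes lie below 0, with Cdc25b above it, and under vehicle 31 of 40 do.

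A wider list of 80 other mitosis genes, of which 77 were tested, had line medians of the same signs as the 40. Its line medians were -0.17, -0.30 and 0.29 in the fl lines and -0.21 and 0.03 in the wt lines. Of the 77, 73 were lower in line 10950 and 59 were higher in line 10986. In wt line 10980, 42 of the 77 were higher and 35 lower, where 49.1% of all genes were higher. None passed in the fl lines, where the median change was -0.02. Troap, a spindle-associated protein, and Mybl2, a transcription factor that works with MuvB on G2 and M genes, were the lowest, and both were lower in all 3 fl lines. Troap changed by -0.48, -0.43 and -0.81 in single lines, and Mybl2 by -0.41, -0.44 and -0.83 (fl changes -0.57, SE 0.14, and -0.56, SE 0.13, limma adjusted p = 0.173 and 0.152). In the wt lines both were lower in 10977 and higher in 10980.

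Other cell cycle lists are given by their values in the fl lines. The 13 genes of the anaphase promoting complex, its subunits with the activator Fzr1, had fl line medians of -0.11, 0.04 and 0.27. Anapc13 had 0.51 (SE 0.21), with -0.12, 0.62 and 1.04 in the single fl lines, and Fzr1 had -0.33 (SE 0.11). Of 24 S phase genes tested (of 25 listed), 18 lay above 0, with a median fl change of 0.14 and line medians of 0.05, -0.02 and 0.37. Among them Rfc4, a clamp loader subunit, had 0.59 (SE 0.26), with 0.06, 0.24 and 1.48 in the single fl lines. E2f1, the S phase transcription factor, had -0.36 (SE 0.10) and was lower in all 3 fl lines. The 6 Cdk inhibitor genes tested (of 7 listed) had line medians of -0.17, 0.01 and 0.01, with all 6 lower in line 10949, and of these Cdkn1b had -0.17 (SE 0.12) and Cdkn2c 0.12 (SE 0.26). None of these genes passed.

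Some markers of maturing myeloid cells rose with 4-OHT in the fl lines. Of 18 monocyte and macrophage markers tested (of 19 listed), 3 rose: Vcan by 1.48, Ctss by 1.40 and Irf8 by 0.93 (limma adjusted p = 0.0143, 0.0460 and 0.0368), where 0.0511% of all genes rose. The mean log2 level of the 18 was 9.29 to 9.87 on the fl 4-OHT arrays, against 8.83 to 9.08 on the fl vehicle arrays, and 8.96 to 9.44 on the wt 4-OHT arrays, against 9.22 to 9.27 on the wt vehicle arrays. Its line medians were 0.71, 0.31 and 0.96 in the fl lines and 0.16 and -0.28 in the wt lines, so it was higher in all 3 fl lines where the mitosis genes were not all lower. Of the 18, 15 had a fl change above 0 and 3 below. Of 12 late granulocyte markers tested (of 14 listed), only Mmp8 passed, with a rise of 2.56 (limma adjusted p = 0.0143). The median fl change of the 12 was 0.12, with 10 above and 2 below 0. For fl minus wt under 4-OHT the median of the 12 was -0.02, with 6 above and 6 below 0. Leaving out line 10949, 10950, 10977 or 10980 left no gene of the array past the test in the fl lines. The part of these cells in the mitosis values was not tested.

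Other lists held no passing gene in the fl lines. The 16 immediate early genes, which respond to handling and growth signals within minutes, had fl line medians of -0.30, -0.10 and -0.63 and wt line medians of 0.00 and 0.06, with Jun at -1.30 (SE 0.31) and Btg2 at -0.97 (SE 0.19). Of the progenitor surface markers, Cd34 had 1.04 (SE 0.35) and Flt3 0.43 (SE 0.16). In the single fl lines Cd34 had 0.58, 0.44 and 2.09, and Flt3 0.41, 0.86 and 0.03. All 4 progenitor markers tested lay above 0. The 7 mast cell and basophil markers tested had a median of -0.01, with 3 above and 4 below 0. The largest changes were those of Cpa3 (0.89) and Mcpt8 (0.33). In the single fl lines Mcpt8 had 0.33, -0.48 and 1.14. The 5 erythroid and megakaryocyte markers tested had a median of 0.01, with Klf1 at -0.12 and Alas2 at 0.07. The 5 lymphoid markers tested had a median of -0.01, with Cd79b at 0.80 and Cd2 at -0.09. Of 10 measured lymphoid markers, 5 lay under the level filter, among them Cd3g, Cd79a and Ms4a1. Of 10 erythroid and megakaryocyte markers listed, 6 were measured and 1, Pf4, lay under the filter. The mean log2 level of the 6 was 6.51 to 6.82 over the arrays, against a filter at 6.23.

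**Figure D5:**
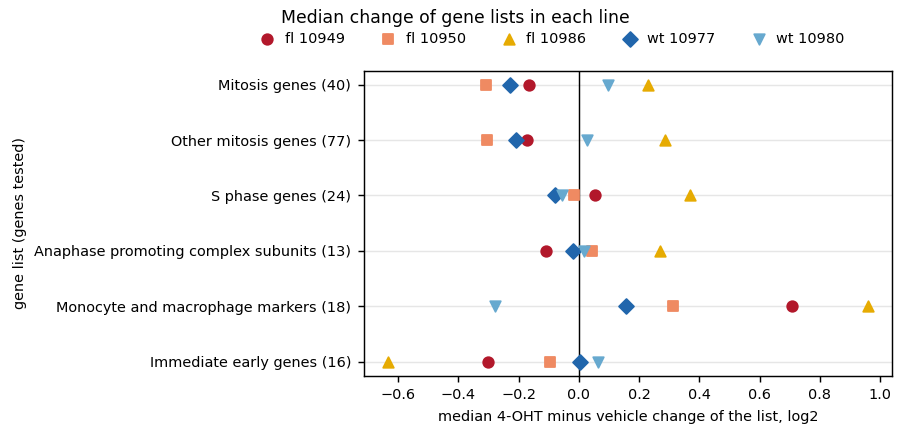
Median 4-OHT minus vehicle log2 change of each gene list in each of the 5 lines, with the number of genes tested in brackets. Both mitosis lists sit below 0 in lines 10949, 10950 and 10977 and above 0 in lines 10986 and 10980, and the monocyte and macrophage list sits above 0 in all 3 fl lines.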

How the data were processed

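The authors deposited a linear intensity for each probe set on each array, summarised by RMA per the submitters' processing notes. That method removes background, gives all arrays a common distribution and combines the probes of a set. Here log2 was taken of the deposited intensity values, whose range shows a linear scale. Per the labels' protocols, Trizol RNA (200 ng) went into Ambion WT labelling, and cells grew in 20% serum with SCF (20 ng/mL), IL-3 and IL-6 (each 10 ng/mL). Median signals were 144.7 to 158.2. Arrays have no read depth, so their number limits the precision.

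Of 35556 probe sets, 21789 had 1 symbol in the platform annotation, 1621 several and 12146 none here, and 21698 matched the RefSeq table of GRCm38.p6 by Entrez identifier. The brightest probe set with a single symbol stood for a gene (19938 genes), and the 15662 genes whose mean log2 level reached 6.23 (25th percentile over probe sets) entered the tests.

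Changes came from a two-sided fit of all 10 arrays in limma 3.58.1 (R 4.3.3) with a block per cell line and a 4-OHT term for each genotype, adjusted by Benjamini-Hochberg over every tested gene at a threshold of 0.05. There were 3 residual degrees of freedom. For fl against wt, the 4 group means were fitted and the line entered as a random effect (statmod 1.5.0, correlation 0.165). The pairing comes from the series design, in which a line gave both a 4-OHT and a vehicle culture. Deviations of a line's 2 arrays from their group means correlated at 0.78, 0.22 and -0.06 in the fl lines and at 0.43 in the wt lines. The deviations of the 2 wt lines mirror each other by construction, so 0.43 is 1 value for both. The code was tested on simulated data. Members and lists were chosen with earlier results of these data known. Named were all members, with values per array for the 1 to 3 largest fl changes of each role, and in the other lists up to 4 passing genes or the 2 largest changes. The array values of Plk1, Bub1 and Ccnb2 were added after they were seen. Alternatives covered the block, filter, scaling, variance prior, array weights and leaving out each line.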

Additional observations from a re-analysis of the deposited data

Results flagged for a closer look

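Aurkb, the kinase of the chromosomal passenger complex, was lower after 4-OHT in all 3 fl lines, by 0.20, 0.16 and 0.42 on the log2 scale, and higher in both wt lines, by 0.01 and 0.26. It was the member whose direction was uniform within each genotype and opposite between them, as it was for 3.49% of all genes. The difference of its 4-OHT change, fl minus wt, was -0.39 (SE 0.17, limma adjusted p = 0.861 over all genes). Groups of 3 and 2 arrays were too small to test for single outlying arrays.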

How the results depend on the processing

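Of 3080 alternative values of single members, 3048 kept no call. With array weights, 15 members passed in the fl lines and 16 between fl and wt under vehicle, and Nuf2 reversed to -0.28 in the fl lines; this weighting called 1698 genes higher and 2209 lower in the fl lines, against 8 and 16 in the unweighted fit, and 2603 and 3634 between fl and wt under vehicle, against 0 and 3. Leaving out each line gave 0 to 1 passing members in the fl lines and 0 in the other comparisons, and median fl changes from -0.22 to 0.03. The medians went from -0.23 to 0.10 in the wt lines and from -0.20 to 0.15 for the difference of changes, and from -0.28 to -0.08 and -0.25 to -0.02 for fl against wt under 4-OHT and vehicle. Without line 10986, 144 genes passed as higher and 296 as lower in the fl lines, against 0 of all genes without any other line. No pairing (the line left out as a block) gave 0 passing members and a median of -0.08 in the fl lines, with 5 genes higher and 23 lower. It changed no call of a member. The other alternatives, on filter, scaling, variance prior and the arrays used, left the medians of all 5 comparisons below 0. Arrays give 1 value per line and treatment, and the cause of the differences between settings was not tested.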

Other observations

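The 26 measured genes with TTTGAA or TTTAAA in a promoter window had a median fl change of -0.10, and the 8 measured genes whose windows lacked both had -0.01. For CCAAT the medians were -0.08 with it and -0.05 without it, and for AGGCCT -0.04 and -0.08. These are medians over genes that share arrays, with no test.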
